A study of Mus musculus with 224 samples.

Results

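Hippocampal gene expression after chronic intermittent ethanol vapor was examined as 1 comparison, the main effect of vapor over drinking states. For each probeset it is the mean of the CIE Drinking and CIE NonDrinking group means minus the mean of the Air Drinking and Air NonDrinking group means, so that a positive value is higher in CIE mice. All 42 hippocampus (HPC) arrays of the 224 arrays of the series entered it, each from 1 mouse. They were 12 CIE Drinking, 11 CIE NonDrinking, 11 Air Drinking and 8 Air NonDrinking arrays, that is 23 CIE and 19 Air arrays. The series also holds 4 other regions of these mice, the nucleus accumbens (NAC), prefrontal cortex (PFC), central nucleus of the amygdala (CeA) and bed nucleus of the stria terminalis (BNST).

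All mice were male, of the strain labelled C57BL6/J, bought at 10 weeks of age. CIE mice breathed ethanol vapor for 16 h a day over 4 days in each of 4 cycles, with 72 h of abstinence after a cycle, and Air mice sat in chambers that carried air alone. An injection before each session gave CIE mice ethanol (1.6 g/kg) together with pyrazole (1 mmol/kg), an inhibitor of alcohol dehydrogenase, and Air mice saline with pyrazole, so every group carried pyrazole. CIE Drinking and Air Drinking mice could choose between water and 15% ethanol in sessions of 2 h, for 6 weeks before the first cycle and again between cycles. CIE NonDrinking and Air NonDrinking mice had water. Per the study, drinking mice were hours and CIE NonDrinking mice days away from their last ethanol at tissue collection. Air NonDrinking mice were ethanol-naive, and the main effect averages over these states. The arrays hold whole dissected hippocampus, so fewer cells of a type and less RNA per cell cannot be told apart.

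Repeated cycles of vapor and withdrawal are used in mice as a model of ethanol dependence, in which ethanol intake rises over cycles. The hippocampus, made mainly of dentate gyrus granule cells, pyramidal cells of the CA fields and interneurons, forms contextual memory and takes part in withdrawal excitability. Ethanol acts there on GABA-A and NMDA receptors, and repeated exposure is known for changes in synaptic, chromatin and myelin genes.

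Values are the deposited log2 intensities of probesets, sets of short probes that read a stretch of a transcript, and many genes have several. Of 44463 probesets with hippocampal values, 534 (1.2%) were called in the vapor main effect by LIMMA at a Benjamini-Hochberg adjusted p of 0.01 or less, with 474 higher (1.07%) and 60 lower (0.135%) in CIE mice. The changes were small, with a median log2 difference of 0.33 for the higher and -0.16 for the lower probesets, and 15 exceeded a fold of 1.5. In none of the 534 did the ranges of the 23 CIE and the 19 Air arrays stand apart. The tissue label was checked on marker genes. Dentate granule cell genes had a median level of 10.88 over hippocampal arrays against 7.40 to 8.05 in the other regions, and the median of striatal genes was 7.98 in the HPC against 11.88 in the NAC. CA pyramidal cell genes, at 9.34, did not set the HPC apart from the CeA (9.39). These levels are set side by side although regions had been normalized separately. Mean levels over the marker lists of other cell types overlapped between groups, and the group medians of astrocyte genes, for example, lay between 11.47 and 11.53.

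A feature of the arrays has to be given before the genes. Mouse numbers ran in stretches by group, with CIE Drinking mice at 1 to 21, 6 Air Drinking mice at 24 to 32, CIE NonDrinking mice at 33 to 44, Air NonDrinking mice at 45 to 55 and the other 5 Air Drinking mice at 57 to 62. The mean of the 474 higher probesets in an array, a level on the log2 scale that describes the calls and is no test of them, fell along these numbers. It was 8.23 to 8.37 in CIE Drinking mice (median 8.30), 8.07 to 8.24 in Air Drinking mice 24 to 32 (8.16), 7.76 to 8.11 in CIE NonDrinking mice (7.99), 7.63 to 7.90 in Air NonDrinking mice (7.70) and 7.36 to 7.64 in Air Drinking mice 57 to 62 (7.54). The 2 runs of Air Drinking mice, which had the same treatment, thus lay at opposite ends of the Air arrays and did not overlap. Air Drinking mice 24 to 32 lay above most CIE NonDrinking mice. What the numbers stand for (order of dissection, cage or hybridization) is not given in the sources used here.

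**Figure D1:**
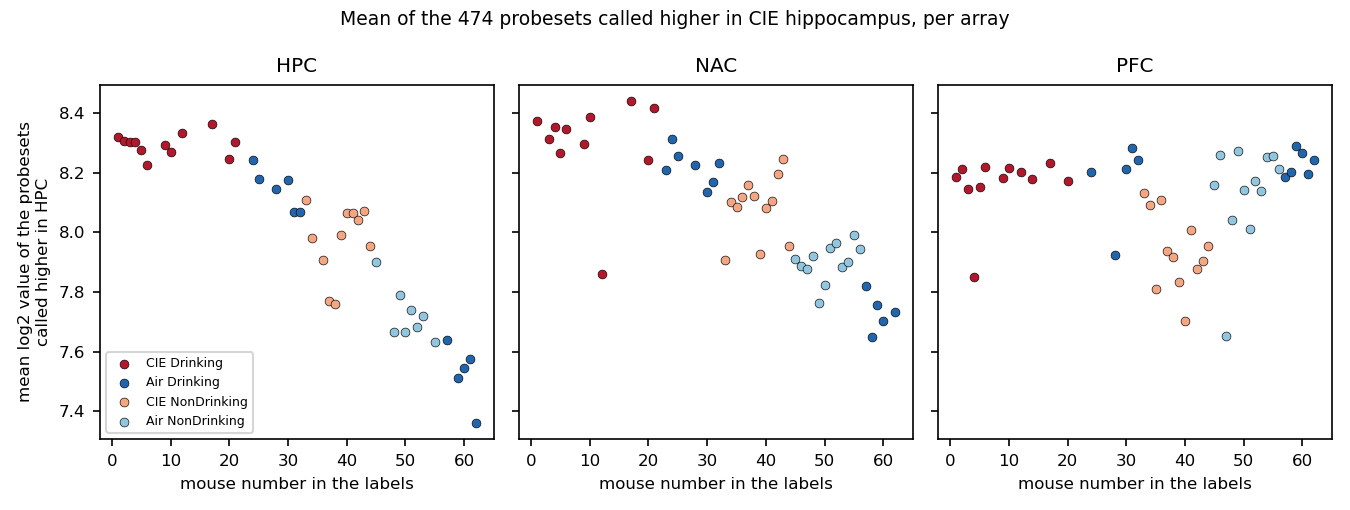
Mean log2 level, in each array, of the 474 probesets called higher in CIE hippocampus (vertical axis) against mouse number (horizontal axis), in the HPC, NAC and PFC, with a point for each array and colour for the group. In the HPC the level falls from 8.30 (median of CIE Drinking mice 1 to 21) to 7.54 (Air Drinking mice 57 to 62), with Air Drinking mice 24 to 32 at 8.16, and the NAC runs the same way but the PFC does not.

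The mean of the 60 lower probesets kept closer to the vapor label. It had medians of 7.86 in CIE Drinking and 7.95 in CIE NonDrinking mice, against 8.0 in Air Drinking mice 24 to 32, 8.11 in Air Drinking mice 57 to 62 and 8.11 in Air NonDrinking mice. The second principal component of all probesets, with 16.2% of the variance, also followed the mouse number, at 3.61 to 24.67 in CIE Drinking mice, 0.43 to 18.57 in Air Drinking mice 24 to 32 and -30.25 to -16.45 in Air Drinking mice 57 to 62. Since CIE Drinking mice held the lowest numbers and Air NonDrinking mice high ones, vapor and whatever the number stands for cannot be told apart on these arrays, except as far as the Air Drinking mice lie on both sides. The results are therefore given with all 42 arrays and without Air Drinking mice 57 to 62, a choice made after the levels had been seen.

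Without those 5 mice, 37 arrays remained and 43 probesets (0.0967%) were called, 39 higher and 4 lower, all of them among the 534. The median difference of the 474 higher probesets was then 0.19, and that of the 60 lower ones -0.14. In both drinking states the CIE mice that remained still had lower numbers than the Air mice. Vapor and mouse number thus cannot be told apart in these calls either. Without Air Drinking mice 24 to 32 instead, 2866 probesets were called. With the mouse number as a linear covariate 0 were called by LIMMA (939 at an unadjusted p under 0.05, smallest adjusted p 0.597), and the median difference was -0.02 for the 474, of which 186 remained above 0, and -0.07 for the 60, of which 59 remained below 0. Without mice 57 to 62 and with the covariate the higher probesets kept a smaller share of their median difference than the lower ones did, and without mice 24 to 32 both grew, to medians of 0.49 and -0.18.

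The gene with the largest fall and 3 of the genes with large rises are shown by their promoters, which differ widely in base content. The sequences are those of RefSeq on GRCm38.p6, from 250 bases before to 50 bases after the annotated start, printed 5′ to 3′ on the strand of the gene. Capitals mark the GC box, GGGCGG or its complement CCGCCC. The promoter of 9630013A20Rik, a noncoding RNA gene named by its clone, lies at chr14:84476375-84476674 on the minus strand, that of Fam13c at chr10:70440418-70440717 on the plus strand, that of Zbtb7a at chr10:81136021-81136320 on the plus strand and that of Crebbp at chr16:4213355-4213654 on the minus strand. Bases G and C made up 42.7% of that of 9630013A20Rik, 54.3% of that of Fam13c, 77.7% of that of Zbtb7a and 82% of that of Crebbp.
9630013A20Rik: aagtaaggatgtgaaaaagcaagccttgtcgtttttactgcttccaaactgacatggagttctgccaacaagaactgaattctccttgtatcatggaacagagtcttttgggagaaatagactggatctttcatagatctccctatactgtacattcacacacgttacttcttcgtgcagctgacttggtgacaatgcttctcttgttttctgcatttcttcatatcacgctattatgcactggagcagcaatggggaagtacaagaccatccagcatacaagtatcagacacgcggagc
Fam13c: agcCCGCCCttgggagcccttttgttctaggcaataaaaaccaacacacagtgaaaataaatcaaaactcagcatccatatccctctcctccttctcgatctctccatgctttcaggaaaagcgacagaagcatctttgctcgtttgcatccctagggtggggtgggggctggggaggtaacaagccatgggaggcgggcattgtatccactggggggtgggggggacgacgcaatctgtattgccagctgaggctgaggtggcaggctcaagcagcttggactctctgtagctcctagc
Zbtb7a: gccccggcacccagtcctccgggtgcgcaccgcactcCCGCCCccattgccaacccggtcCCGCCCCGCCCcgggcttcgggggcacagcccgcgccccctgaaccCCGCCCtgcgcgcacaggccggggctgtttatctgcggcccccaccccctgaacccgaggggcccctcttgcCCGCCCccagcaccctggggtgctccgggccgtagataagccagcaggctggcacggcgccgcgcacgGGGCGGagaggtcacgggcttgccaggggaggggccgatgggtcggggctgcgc
Crebbp: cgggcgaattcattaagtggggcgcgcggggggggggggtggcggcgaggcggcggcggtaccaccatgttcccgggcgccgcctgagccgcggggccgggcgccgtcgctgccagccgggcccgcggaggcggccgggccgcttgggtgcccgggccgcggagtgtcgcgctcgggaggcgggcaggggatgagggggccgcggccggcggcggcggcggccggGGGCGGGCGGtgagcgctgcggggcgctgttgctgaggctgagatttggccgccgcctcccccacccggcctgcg

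The gene that fell most was 9630013A20Rik, a long noncoding RNA known in the mouse from oligodendrocyte precursors that are starting to differentiate. Its brightest probeset read 4.77 to 6.63 in CIE mice (median 5.43) and 5.59 to 6.68 in Air mice (median 6.20), and 22 of 23 CIE arrays lay below the Air mean. The log2 difference was -0.74 (SE 0.106, adjusted p = 0.000351), a fold of 1.67 lower in CIE mice. By group, CIE Drinking mice had a median of 5.54 and CIE NonDrinking mice 5.41, against 6.15 in Air Drinking mice 24 to 32, 6.03 in Air Drinking mice 57 to 62 and 6.28 in Air NonDrinking mice. The 2 runs of Air Drinking mice overlapped here, whereas those of Fam13c, Zbtb7a and Crebbp did not. The difference was -0.63 in drinking and -0.84 in non-drinking mice. It was -0.78 (adjusted p = 0.00128) without Air Drinking mice 57 to 62, and -0.83 (unadjusted p = 1.34e-05, adjusted p = 0.597) with the mouse number as a covariate. Its other 2 probesets were also called lower, by -0.58 (SE 0.0878) and -0.24 (SE 0.0509), so all 3 probesets of the gene fell.

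Other genes with a lower brightest probeset fell by far less. For Brca1, a DNA repair gene, CIE mice had 5.44 to 6.12 (median 5.78) and Air mice 5.78 to 6.17 (median 6.00), a difference of -0.24 (SE 0.0501, adjusted p = 0.0038). Hsf2, a heat shock transcription factor, had 6.65 to 7.48 (median 7.22) in CIE mice and 7.23 to 7.75 (median 7.44) in Air mice, a difference of -0.22 (SE 0.0517, adjusted p = 0.00824). CIE and Air arrays of these genes overlapped in their ranges, with 20 of 23 CIE arrays below the Air mean for Brca1 and 21 of 23 for Hsf2, and both differences were -0.22 without Air Drinking mice 57 to 62, where neither was called (adjusted p of 0.0895 for Brca1 and 0.0805 for Hsf2). Dct, which encodes a melanin pathway enzyme, fell by 0.18 (SE 0.0334), Atg5, which is needed to form autophagosomes, by 0.16 (SE 0.0342) and Sp3, a zinc finger factor that binds GC boxes, by 0.15 (SE 0.0337). A second probeset of Atg5 was called in the other direction. Eqtn, Rassf3, Ccdc122, Nsmaf, Ecpas and Yipf4 completed the 12 largest falls, which ended at -0.10 for Yipf4. The other probeset of Hsf2 differed by 0.12, and those of Brca1 by -0.10, -0.03 and -0.04. Those of Ecpas differed by 0.07, 0.06 and 0.12 and those of Rassf3 by -0.07 and 0.07. Those of Eqtn and Yipf4 lay between -0.10 and -0.01, and none of these other probesets was called. In all, 16 genes (0.0886% of 18064) were called lower by their brightest probeset.

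The largest rises by brightest probeset, among 50 genes called higher in this way (0.277%), were those of Zbtb7a, Slc16a14, Creg2 and Dlgap2. Zbtb7a, a zinc finger repressor of transcription, read 7.44 to 8.31 (median 7.98) in CIE mice and 6.26 to 8.22 (median 7.19) in Air mice, a difference of 0.61 (SE 0.113, adjusted p = 0.00161). Its Air arrays spread over a wider range than its CIE arrays, with a median of 7.86 in Air Drinking mice 24 to 32 and of 6.53 in Air Drinking mice 57 to 62. All 23 CIE arrays lay above the Air mean, which fell between these runs. The difference was 0.33 (adjusted p = 0.00128) without mice 57 to 62 and -0.10 with the covariate, and the other 2 probesets of Zbtb7a differed by -0.02 and -0.01.

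Slc16a14, of the monocarboxylate transporter family, had 6.60 to 7.84 (median 7.27) in CIE mice and 6.10 to 7.66 (median 6.62) in Air mice, a difference of 0.58 (SE 0.107, adjusted p = 0.00161). Its other probeset differed by 0.21 and was not called. Dlgap2, a scaffold of the postsynaptic density, had 8.51 to 9.80 (median 9.30) in CIE mice and 7.88 to 9.71 (median 8.47) in Air mice, a difference of 0.54 (SE 0.107, adjusted p = 0.00253). Both overlapped in the upper part of the Air range, which Air Drinking mice 24 to 32 filled, with medians of 7.21 for Slc16a14 and 9.22 for Dlgap2. Without Air Drinking mice 57 to 62 the differences were 0.39 for Slc16a14 (adjusted p = 0.0605) and 0.32 for Dlgap2 (adjusted p = 0.0542), which were not called. Creg2, which encodes a secreted glycoprotein of the brain, was higher by 0.54 (SE 0.097), and by 0.33 (adjusted p = 0.0122) without those mice.

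Crebbp, the CREB-binding histone acetyltransferase, had 10.71 to 11.40 (median 11.11) in CIE mice and 10.09 to 11.54 (median 10.58) in Air mice, a difference of 0.40 (SE 0.0858, adjusted p = 0.00476). Of all 42 arrays the highest was an Air Drinking one, of the run 24 to 32 (11.02 to 11.54), while mice 57 to 62 had 10.09 to 10.35. Without mice 57 to 62 it differed by 0.19 (adjusted p = 0.0766). Crebbp has 4 probesets, of which the dimmest was also called, at 0.60, and the other 2 differed by -0.03 and -0.02. Nr2e1, a nuclear receptor of neural stem cells, rose by 0.42 (SE 0.0769), Megf11 by 0.52 (SE 0.115), Zfp458 by 0.40 (SE 0.0936), Zbed6, a zinc finger repressor, by 0.39 (SE 0.0858), Csnk2a1, a catalytic subunit of casein kinase 2, by 0.35 (SE 0.0784) and 5330434G04Rik by 0.35 (SE 0.0817). None of these 6 was called without mice 57 to 62, where the differences were 0.30 for Nr2e1, 0.27 for Megf11, 0.20 for Zfp458, 0.18 for Zbed6, 0.16 for Csnk2a1 and 0.20 for 5330434G04Rik. Over all arrays the other probeset differed by -0.03 for Nr2e1, -0.02 for Megf11, -0.06 for Zfp458 and 0.275 for Zbed6, without a call. Those of Csnk2a1 ran from -0.02 to 0.23 without a call, and that of 5330434G04Rik was called, at 0.43.

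Col6a4, which encodes a collagen VI chain, went against this pattern. It had 6.42 to 7.51 (median 7.02) in CIE mice and 6.31 to 7.18 (median 6.47) in Air mice, a difference of 0.37 (SE 0.0854, adjusted p = 0.0082). Air Drinking mice 57 to 62 (median 6.71) lay above rather than below mice 24 to 32 (median 6.45), and their ranges overlapped. The difference was 0.42 (adjusted p = 0.0354) without mice 57 to 62 and 0.44 (unadjusted p = 0.00223) with the covariate. It was 0.24 in drinking and 0.51 in non-drinking mice. The other probeset of Col6a4 differed by 0.03 and was not called.

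The 5 probesets with the smallest adjusted p, 0.000351 each, were 2 of 9630013A20Rik and 1 each of Notch1, Add1 and Fam13c. The probeset of Notch1, a receptor that keeps progenitors undifferentiated, had 7.78 to 8.20 (median 7.99) in CIE mice and 7.58 to 7.97 (median 7.76) in Air mice, a difference of 0.22 (SE 0.0312). That of Add1, an adducin of the membrane skeleton, had 7.99 to 8.66 (median 8.34) in CIE mice and 7.38 to 8.45 (median 7.85) in Air mice, a difference of 0.46 (SE 0.0671). For Fam13c it had 7.53 to 8.44 (median 8.11) in CIE mice and 6.63 to 8.24 (median 7.14) in Air mice, a difference of 0.68 (SE 0.102). All 23 CIE arrays lay above the Air mean in each of these 3 genes. In each the Air Drinking mice 24 to 32 still overlapped the CIE range, with 7.81 to 8.24 for Fam13c, where mice 57 to 62 had 6.63 to 7.14.

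Without Air Drinking mice 57 to 62 these 3 were still called, with differences of 0.42 for Fam13c (adjusted p = 5.23e-07), 0.29 for Add1 (adjusted p = 2.23e-06) and 0.17 for Notch1 (adjusted p = 0.00357). Leaving out mice chosen for their levels also lowered the SE, from 0.102 to 0.0432 for Fam13c and from 0.0671 to 0.0327 for Add1. For these 2 genes a smaller difference thus came with a smaller p. With the mouse number as a covariate the differences were 0.04 for Fam13c, 0.04 for Add1 and 0.10 for Notch1 (unadjusted p = 0.0243). Fam13c has 4 other probesets, which differed by -0.07, -0.09, 0.17 and -0.01, and none was called. The brighter probesets of the other genes, 1 of Notch1 (0.04, adjusted p = 0.717) and 2 of Add1 (-0.01 and 0.04, adjusted p of 0.916 and 0.525), were not called either. Over the 28 probesets named here by size or p, 18 kept their sign with the covariate and 6 were called without mice 57 to 62.

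**Figure D2:**
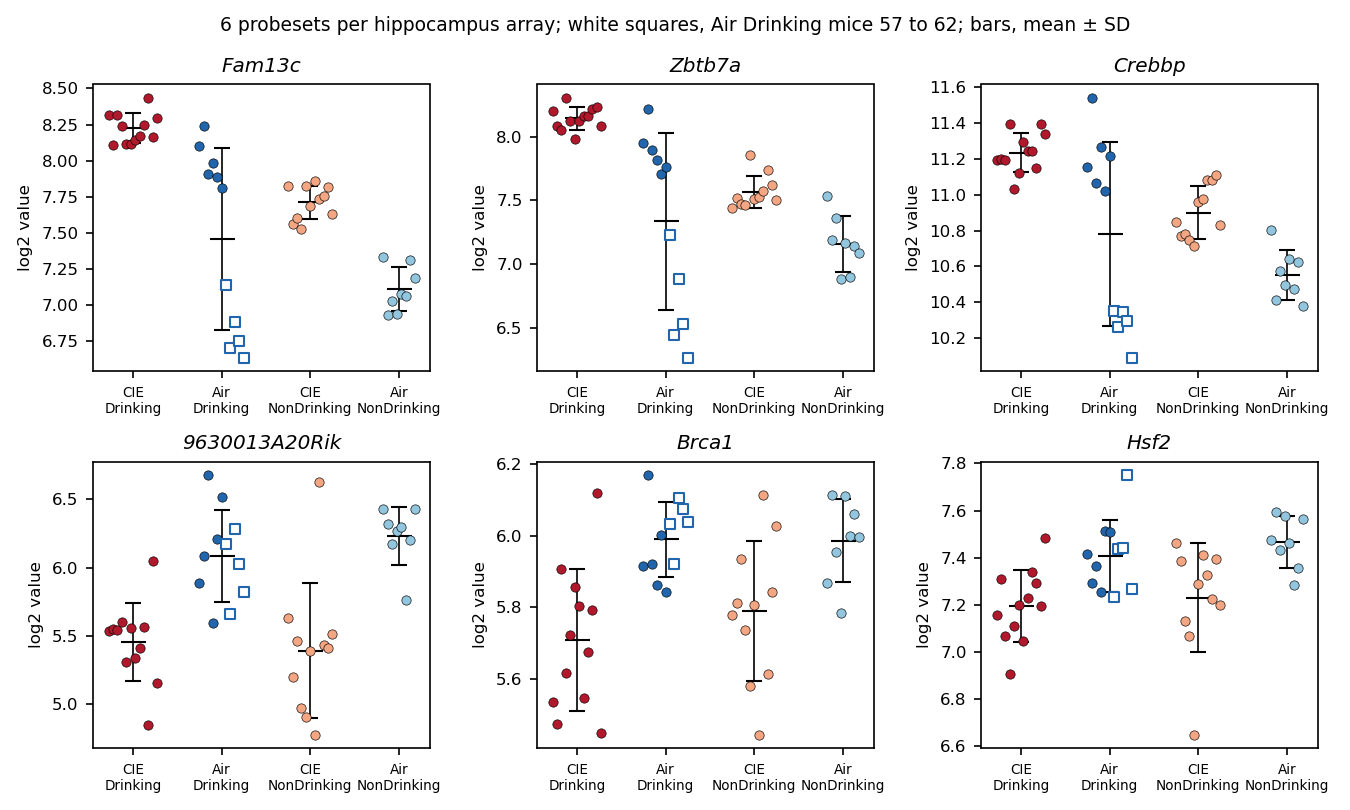
Log2 level in each of 42 hippocampal arrays of probesets of Fam13c, Zbtb7a, Crebbp, 9630013A20Rik, Brca1 and Hsf2, by group, with the group mean and SD as bars and Air Drinking mice 57 to 62 as white squares. The white squares sit at the foot of the Air Drinking group for Fam13c (6.63 to 7.14), Zbtb7a and Crebbp, and among the other Air Drinking mice for 9630013A20Rik (5.66 to 6.28).

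**Figure D3:**
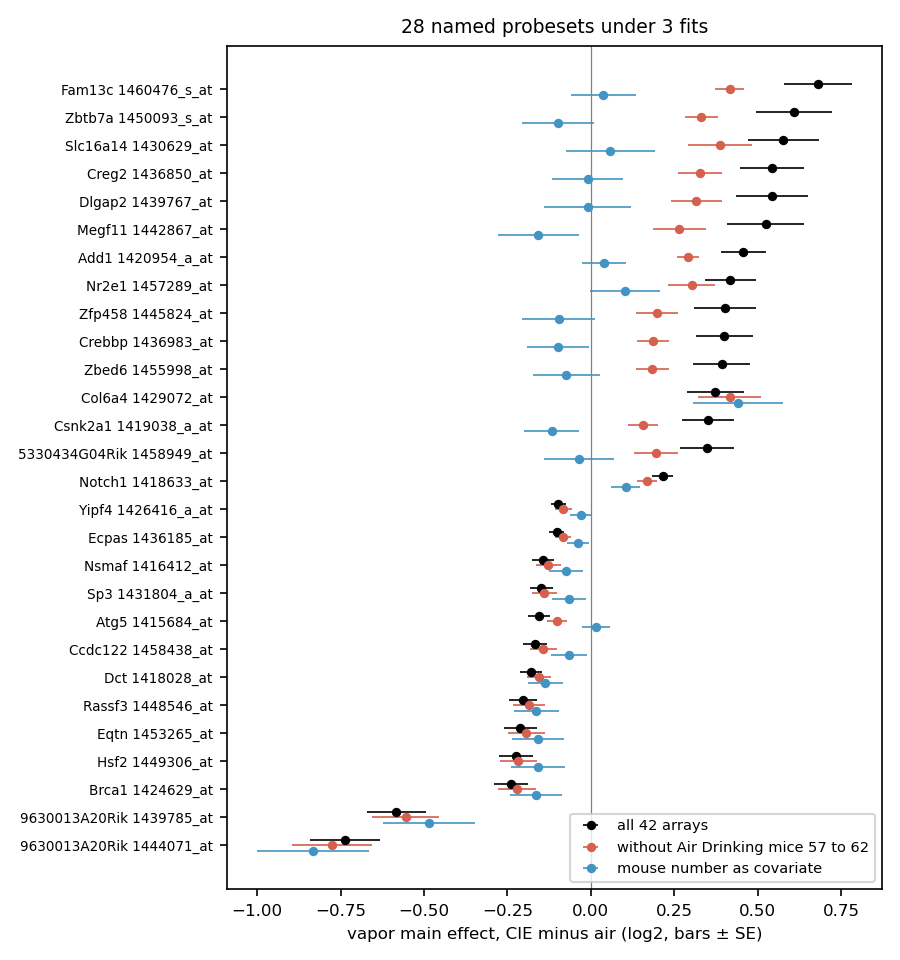
Log2 vapor main effect (CIE minus Air, horizontal axis) with its SE for the 28 named probesets, fitted on all 42 arrays, without Air Drinking mice 57 to 62, and with the mouse number as a covariate. Most rises shorten without those mice (Fam13c 0.68 and 0.42) and lie nearer 0 with the covariate (0.04), Col6a4 does not (0.37, 0.42 and 0.44), and 9630013A20Rik stays at -0.74, -0.78 and -0.83.

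The 43 probesets called without Air Drinking mice 57 to 62 covered 34 genes, 32 higher and 2 lower. Besides the genes above, they held Ankrd11 with 2 probesets (0.51 and 0.46 over all arrays), which encodes a chromatin regulator of neurons, Tnrc18 (0.44), Rnf20 (0.43), a ubiquitin ligase of histone H2B, Phf20 (0.45), Asxl2 (0.40), a Polycomb-related factor, and Brd3 (0.28), a reader of acetylated histones. They also held the deubiquitinases Usp34 (0.42) and Usp7 (0.58), the translation factor Eif3c (0.52), Hdlbp with 2 probesets (0.61 and 0.48), Ppp2r5e (0.44), a regulatory subunit of protein phosphatase 2A, and Lss (0.34), an enzyme of cholesterol synthesis. The lower ones were 9630013A20Rik and Tial1 (-0.23), an RNA-binding splicing factor. The values in brackets are those over all 42 arrays. Without those mice Ankrd11 had 0.29 and 0.24, Tnrc18 0.27, Rnf20 0.25, Phf20 0.27, Asxl2 0.23 and Brd3 0.18. Likewise Usp34 had 0.24, Usp7 0.31, Eif3c 0.33, Hdlbp 0.35 and 0.27, Ppp2r5e 0.31, Lss 0.23 and Tial1 -0.17. With the mouse number as a covariate these probesets lay between -0.11 (Usp7) and 0.08 (Ppp2r5e). None of them was the brightest of its gene. These genes were read out after their values had been seen.

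Most calls came from the dimmer probesets of genes. Of 441 called probesets with a single gene symbol, 375 (85.03%) were not the brightest of their gene, against 47.78% of all such probesets, and 2.27% of the 16531 dimmer probesets were called. The 344 higher ones among them, from 312 genes, had a median difference of 0.34 at a median level of 8.04. The brightest probesets of the same genes had a median difference of -0.01 (range -0.16 to 0.47) at a median level of 10.53. For 216 of the 344 the brightest probeset had the opposite sign, and for 6 it was called in the same direction. Of the 400 genes with a call, 36 had 2 or more called probesets. Where in their transcripts the dimmer probesets lie was not examined. When all probesets of a gene were averaged, 58 genes were called, 54 higher and 4 lower. The 31 lower dimmer probesets had a median of -0.17 and the brightest probesets of their genes a median of -0.04.

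**Figure D4:**
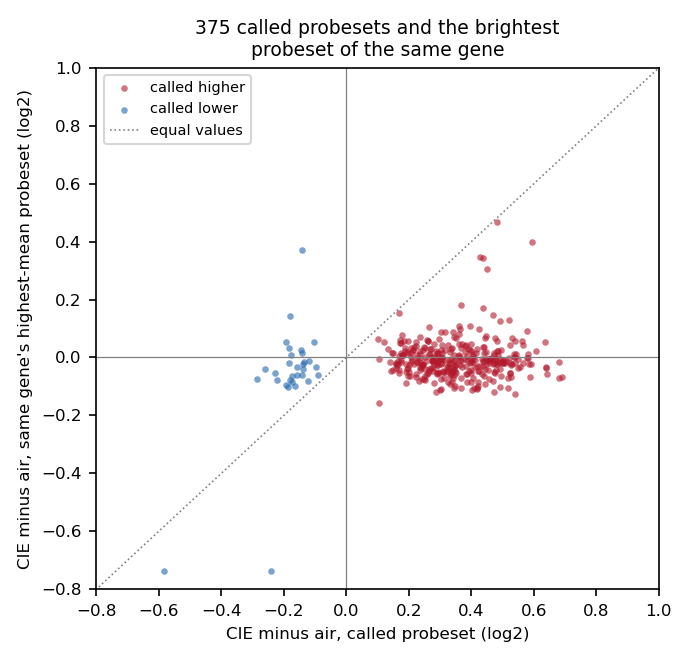
Log2 vapor main effect of each of the 375 called probesets that were not the brightest of their gene (horizontal axis) against that of the brightest probeset of the same gene (vertical axis). The higher ones spread along the horizontal axis around a median of 0.34 while the brightest probesets of their genes stay around -0.01.

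The higher probesets also moved together once group means had been taken off. After group means were taken off, the mean pairwise correlation over the 42 arrays was 0.599 among the 474 higher and 0.233 among the 60 lower probesets, beside 0.005 among all probesets. These arrays share their group means and their mouse numbers, and the values are a description.

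Gene lists were read through any probeset of a gene. Of 18064 genes, 357 (1.98%) had a probeset called higher and 45 (0.249%) a probeset called lower, with Atg5 and Smarca5 in both. Genes with more probesets had more chances to be counted. Chromatin remodellers, the ATPases and partners that move or evict nucleosomes, held most calls, with 12 higher and 1 lower of 32 measured genes, on 92 probesets. Bptf, a subunit of the NURF complex, had 7.25 to 8.50 (median 8.16) in CIE mice and 6.36 to 8.24 (median 7.19) in Air mice, a difference of 0.68 (SE 0.12, adjusted p = 0.00126). Atrx, which deposits histone H3.3, had 7.79 to 9.21 (median 8.77) in CIE mice and 6.92 to 9.09 (median 7.89) in Air mice at its probeset of smallest p, a difference of 0.69 (SE 0.137, adjusted p = 0.00254). Chd4, the ATPase of NuRD, was at 8.52 to 9.36 (median 9.05) in CIE mice and 7.74 to 9.42 (median 8.29) in Air mice, a difference of 0.53 (SE 0.098, adjusted p = 0.00161).

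For Smarca5, the ATPase of ISWI complexes, a probeset rose by 0.44 and another fell by 0.14 (SE 0.0285). Baz2a, Baz2b, Chd2, Chd6, Arid4b, Smarca2, Smarca4 and Smarcc1 were the other higher members. The brightest probesets of the 32 genes had a median of -0.02, with 10 above 0, beside -0.01 over all genes, and only Smarcc1, of the BAF complex, was called at its brightest probeset (0.13). Without Air Drinking mice 57 to 62 Bptf alone was called (0.40, adjusted p = 0.00452), while Atrx differed by 0.36 (adjusted p = 0.0228).

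Among chromatin modifiers, 3 of 29 histone acetylation genes were higher, namely Crebbp, Kat6a and Ep400, and 2 of 12 DNA methylation genes, the methyltransferase Dnmt3a (0.47, SE 0.0952) and the dioxygenase Tet1 (0.33). Of 32 histone methylation genes 1 (3.12%) was higher, the demethylase Kdm5a. Of the dimmer probesets of that list 1.49% were called, beside 2.27% of all dimmer probesets. Of the acetylation and methylation genes named, Crebbp alone was still called without mice 57 to 62, and only at its dimmest probeset (0.35, adjusted p = 0.00621). Beside each list here stand 1.98% of all genes higher and 0.249% lower. Spliceosome and SR protein genes had 4 of 30 higher, Srrm1, Sf3b2, Rbm25 and Pnisr, and 1 lower, Srsf1. Srrm1 and Sf3b2 were still called without those mice. The neuronal RNA-binding proteins Elavl3, Celf6 and Mbnl1 were higher, of 27, and Elavl3, which stabilises neuronal transcripts, had 9.23 to 9.60 (median 9.40) in CIE mice and 9.00 to 9.40 (median 9.23) in Air mice, a difference of 0.18, and was still called at 0.15 (adjusted p = 0.00474).

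At the synapse, 5 of 21 postsynaptic scaffold genes were higher and none lower, Dlgap2, Dlgap4, Homer1, Nlgn1 and Nlgn3. Nlgn1, a neuroligin of excitatory synapses, had 9.22 to 10.03 (median 9.81) in CIE mice and 9.14 to 10.03 (median 9.50) in Air mice, a difference of 0.29 (adjusted p = 0.00451), with arrays that overlapped over nearly the whole range. For Homer1, which links glutamate receptors to the postsynaptic density, 2 of 6 probesets rose, by 0.54 and 0.48. None of the 5 was called without Air Drinking mice 57 to 62. The vesicle genes Syn2 and Syt1, the channel genes Kcnd2, Scn1a and Cacna2d1, the receptor genes Ntrk2 and Igf1r, and Gad2, which makes GABA, were each higher at a probeset, and Kcnj3, a G protein-gated potassium channel, was lower. The higher ones were 2 of 31 presynaptic, 1 of 31 potassium channel, 1 of 8 sodium channel and 1 of 13 calcium channel genes. They were also 2 of 18 neurotrophin and receptor and 1 of 14 interneuron genes, beside 1.98% of all genes. Kcnj3 was 1 of 31 potassium channel genes, beside 0.249% lower of all genes. None of these lists had a gene called at its brightest probeset. None of these genes was called without those mice. No gene was called among 11 GABA-A receptor and 18 ionotropic glutamate receptor genes, families that include direct targets of ethanol.

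In stress and housekeeping lists, Hspa4l was higher and Hsf2 lower among 17 heat shock genes, and Hsp90b1 and Dnajc3 higher among 19 genes of endoplasmic reticulum stress. Over all genes 1.98% were higher and 0.249% lower. None of the 4 was called without Air Drinking mice 57 to 62 (adjusted p of 0.275 for Hspa4l, 0.0805 for Hsf2, 0.0263 for Hsp90b1 and 0.243 for Dnajc3). No member was called of 61 respiratory chain genes (median 0.02, 48 above 0), 37 ribosomal protein genes, 19 interferon and inflammation genes or 16 clock genes. At the brightest probeset 78.7% of respiratory chain genes lay above 0, beside 41.2% of all genes. By LIMMA at an unadjusted p under 0.05, 26.2% of them were higher and 0 lower, beside 4.82% and 8.86% of all genes. Among cell type lists, Cspg4, a marker of oligodendrocyte precursors, rose by 0.15 (SE 0.0344) and Mbp, of myelin, by 0.31, of 19 oligodendrocyte genes (median 0.02, 16 above 0, or 84.2% beside 41.2% of all genes). Without mice 57 to 62 they differed by 0.14 (adjusted p = 0.123) for Cspg4 and 0.18 (adjusted p = 0.282) for Mbp, which was at -0.01 with the covariate. The median of the 19 oligodendrocyte genes was 0.088 in drinking but -0.045 in non-drinking mice. No astrocyte, microglia, endothelial or choroid plexus gene was called. Of 14 dentate granule cell genes none was called, though 13 lay below 0, with a median of -0.15 (-0.23 in drinking and -0.07 in non-drinking mice), and the median of 16 CA pyramidal cell genes was 0.08. Whether a shift in dissection had a part in the differences was not tested.

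**Figure D5:**
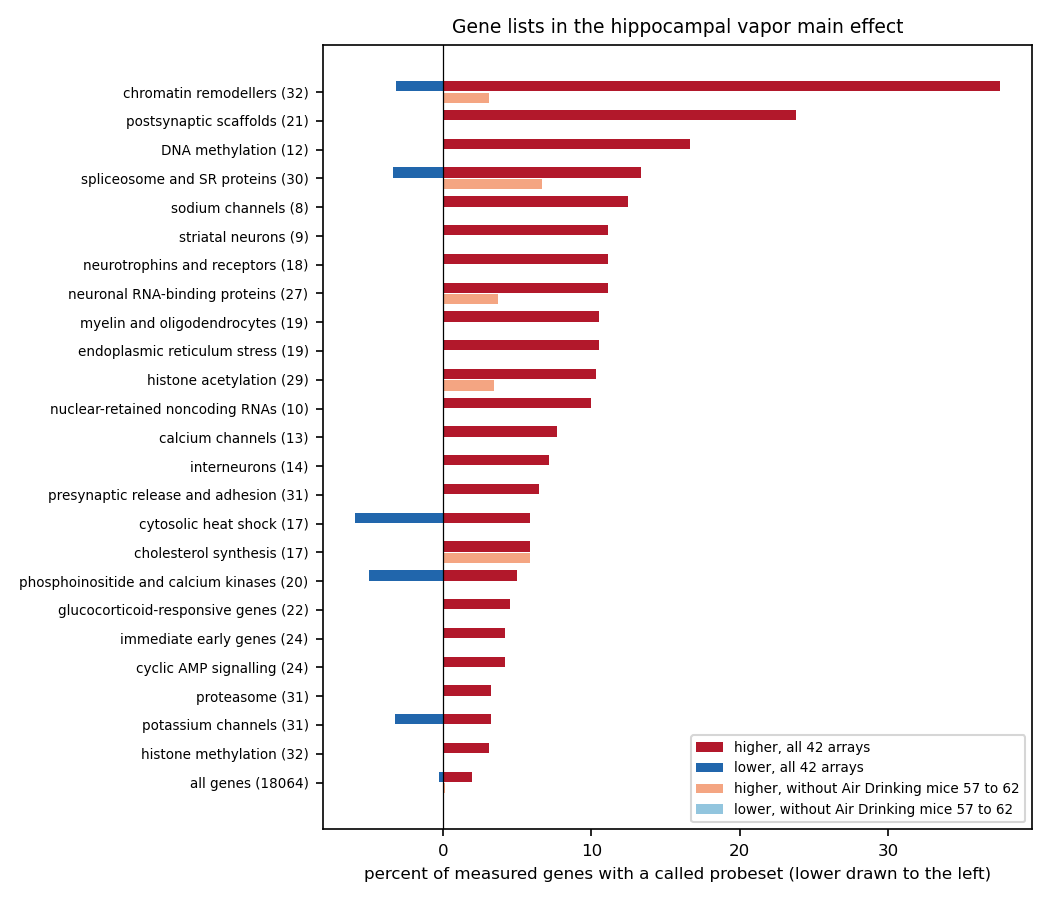
Percent of the measured genes of each list with a probeset called in the vapor main effect, with all 42 arrays and without Air Drinking mice 57 to 62. Chromatin remodellers stand at 37.5% higher and postsynaptic scaffolds at 23.8%, beside 1.98% of all genes, and 1 chromatin remodeller and no scaffold gene is called without those mice.

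Expression in drinking and non-drinking mice gave the parts of the main effect. Between CIE Drinking and Air Drinking mice 549 probesets (1.23%) were called, 481 higher and 68 lower, and 333 of the 534 were among them. Between CIE NonDrinking and Air NonDrinking mice 0 were called by LIMMA (4361 at an unadjusted p under 0.05, smallest adjusted p 0.0448). The interaction, which tests whether vapor acted differently in the drinking states, gave 0 (3970 at an unadjusted p under 0.05, smallest adjusted p 0.0351). All 534 had the same sign in both states, which the choice of probesets by their main effect favours, with medians of 0.41 in drinking and 0.24 in non-drinking mice for the 474 and of -0.18 and -0.14 for the 60.

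These counts turned with the Air Drinking mice. Without mice 57 to 62 the drinking states gave 0 calls in drinking mice (3331 at an unadjusted p under 0.05, smallest adjusted p 0.25) and 66 in non-drinking mice, whose arrays were the same but whose spread was now estimated without those 5. The median of the 474 was 0.13 in drinking mice, below the 0.24 of non-drinking mice. Without mice 24 to 32 drinking mice gave 3041 calls and the interaction 963. The order of the drinking states thus depended on which Air Drinking mice were kept.

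The vapor main effect was also fitted in the other regions of the same mice. It gave 341 higher and 9 lower of 45027 probesets in the NAC, and 28 higher and 3 lower of 44429 in the BNST. In the PFC 122 were higher and 290 lower of 45037, so that most of its calls were falls. In the CeA 0 of 43969 were called. Of the 474 higher probesets of the HPC, 469 were above 0 in the NAC, with a median of 0.23 and 132 called higher there. In the BNST 463 of 473 were above 0 (median 0.18, 12 called higher) and in the CeA 450 (median 0.19). In the PFC 65 were above 0, with a median of -0.11 and 0 called higher. Calls in the opposite direction are not part of these counts. Without Air Drinking mice 57 to 62 the medians were 0.13 in the NAC, 0.09 in the BNST, 0.11 in the CeA and -0.09 in the PFC. Their mean per array ran along the mouse number in the NAC as in the HPC, with medians of 8.35 in CIE Drinking mice, 8.23 in Air Drinking mice 23 to 32, 8.11 in CIE NonDrinking mice, 7.91 in Air NonDrinking mice and 7.73 in Air Drinking mice 57 to 62, and with a single CIE Drinking array apart from its group, at 7.86. The CeA medians fell in the same order (8.04, 7.87, 7.66, 7.56 and 7.41), as did those of the BNST (8.30, 8.13, 8.0, 7.90 and 7.73). In the PFC the medians were 8.19, 8.21, 7.93, 8.17 and 8.22 in the same order, with no such slope. These mice and numbers are shared between regions, so that the regions are not independent of each other.

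The difference between regions was tested itself. HPC minus NAC gave 0 calls (2874 at an unadjusted p under 0.05, smallest adjusted p 0.0666), and HPC minus PFC gave 1898 (4.27%), 1289 higher and 609 lower, of which 433 were among the 534. Without mice 57 to 62 in either region HPC minus PFC gave 255. Wdfy3, a scaffold of selective autophagy, was higher by 0.58 (SE 0.102) in CIE hippocampus and lower by a log2 difference of -0.43 (SE 0.086) in CIE prefrontal cortex, which differed by 1.01 (SE 0.135, adjusted p = 2.60e-07) and by 0.78 (adjusted p = 0.000196) without mice 57 to 62. Fam13c had 0.68 in the HPC and -0.25 in the PFC, which differed by 0.93 (SE 0.124, adjusted p = 2.34e-07). Kcnj3 had -0.22 in the HPC and 0.27 in the PFC, which differed by -0.49 (adjusted p = 0.000199), and by -0.43 (adjusted p = 0.012) without those mice.

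The brightest probeset of 9630013A20Rik was lower in CIE mice in all 5 regions, by -0.74 in the HPC, -0.95 (SE 0.13, adjusted p = 4.04e-05) in the NAC, -0.56 (SE 0.0766, adjusted p = 1.43e-05) in the PFC, -0.96 (SE 0.157, adjusted p = 0.00186) in the BNST and -0.88 (SE 0.152, adjusted p = 0.0357) in the CeA, where it was not called. HPC and PFC differed by -0.18 (SE 0.131, adjusted p = 0.457) at that probeset. At the dimmest probeset they differed by -0.51 (adjusted p = 5.45e-05), with -0.58 in the HPC and -0.07 in the PFC. This fall was thus called in the PFC as well, where none of the 474 higher probesets of the HPC was called higher.

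The promoters of the genes called higher were richer in G and C bases than those of all genes, and those of the genes called lower were not. Of 357 genes with a probeset called higher, 294 matched a RefSeq promoter, with a median of 64.7% G and C bases, and of 45 called lower 34 matched, with 58.8%. Over 14349 matched promoters of all genes it was 58.7%, and over 28 of the 32 genes still higher without Air Drinking mice 57 to 62 it was 69.5%. The GC box (GGGCGG on either strand) was present in 70.4% of the higher, 76.5% of the lower and 54.3% of all promoters. The TATA box (TATAAA) was in 4.76% of the higher and 9.75% of all, the cAMP response element (TGACGTCA) in 4.08% and 2.69%, and the E box (CACGTG) in 11.9% and 9.04%, all on either strand. Of the promoters printed above, that of Zbtb7a held 6 GC boxes, that of Crebbp 2, that of Fam13c 1 and that of 9630013A20Rik none of the 4 motifs. These are descriptions with no test, and the base content of the probesets themselves was not examined. Of the 400 genes with a call 385 had several probesets, beside 8921 of all 18064 genes. The sets compared thus also differ in their number of probesets.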

How the data were processed

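RNA from 5 brain regions was hybridized to Affymetrix Mouse Genome 430 type 2 arrays. The deposited values are log2 intensities that the authors made by RMA background correction and summarisation, quantile normalization for each region apart and ComBat adjustment for hybridization batch. The version of RMA and the batch of each array are not given in the sources used here. Precision is limited by how many arrays a group held. Of 45037 probesets, 574 had no hippocampal value. A mean for each of 4 groups was fitted with limma 3.58.1 (R 4.3.3, eBayes defaults, two-sided), and p-values were Benjamini-Hochberg adjusted over all probesets. The fit was tested on simulated data.

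A gene was represented by its single-symbol probeset of highest mean (the brightest). Genes named were the 12 largest rises and falls among called brightest probesets, the 5 single-symbol probesets of smallest p, called list members and the largest called differences between regions. Members and the 41 lists were chosen with earlier results of these data known. List members were counted through any probeset, and those read through a dimmer one were chosen after their values were seen. Settings that leave out Air Drinking mice by number, use the mouse number as a covariate, or leave out each array were also added after seeing the data. Other settings were a filter on dim probesets, trend and robust variances, array weights, renewed quantile normalization, additive and vapor-only models and an adjusted p of 0.05.

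Groups and the 51 mouse numbers came from the labels. Same-numbered arrays of different regions were taken as the same mouse, which paired 40 mice between the HPC and each of NAC and PFC, and the number was a random block in an alternative fit (consensus correlation 0.02 with the NAC and 0.002 with the PFC). Promoters were RefSeq, matched by symbol. Figures were drawn in Python 3.11.15 with matplotlib 3.10.9.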

Additional observations from a re-analysis of the deposited data

Results flagged for a closer look

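Within groups of 4 to 10 arrays, a single array far from the rest is found by chance in about 1 of 20 groups, and among the HPC groups only the 8 Air NonDrinking arrays were few enough to be examined. There 4 of the 28 probesets had such an array. The Air NonDrinking array set apart read 8.886 for Dlgap2 and 7.7 for Nr2e1, each the highest of its group, 5.76 for 9630013A20Rik, the lowest, and 8.878 for Rassf3, the highest.

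The vapor main effect differed between HPC and PFC, by the test of the difference itself, for 22 of 30 named probesets, with adjusted p between 2.34e-07 and 0.00557, beside 1898 of all 44463 probesets (4.27%), or 255 without Air Drinking mice 57 to 62. Most of these probesets had been named for the size of their effect in the HPC. HPC minus PFC was 1.01 for Wdfy3, 0.93 for Fam13c, 0.80 for Dlgap2, 0.79 for Megf11, 0.78 for Creg2, 0.74 for Zbtb7a, 0.72 for Slc16a14, 0.70 for Zfp458, 0.62 for Add1, 0.51 for Zbed6, 0.47 for Crebbp, 0.45 for Nr2e1, 0.39 for 5330434G04Rik and 0.23 for Notch1. It was -0.51 for the dimmest probeset of 9630013A20Rik, -0.49 for Kcnj3, -0.27 for Atg5, -0.25 for Yipf4, -0.24 for Rassf3, -0.23 for Sp3, -0.21 for Nsmaf and -0.14 for Ecpas.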

How the results depend on the processing

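The count of 534 for the main effect was 522 with the filter on dim probesets, 519 with trend and robust variances, 598 with renewed quantile normalization and 662 in the additive model. It was 1382 with array weights, 844 without the array of lowest correlation, 71 with vapor alone, 1781 at an adjusted p of 0.05, 43 without Air Drinking mice 57 to 62, 2866 without Air Drinking mice 24 to 32 and 0 with the mouse number as a covariate. Leaving out each array gave 310 (Air NonDrinking mouse 55) to 878 (Air Drinking mouse 24), and moved it by over 1.5 times for CIE NonDrinking mouse 38 (844), Air Drinking mice 25 (833), 30 (841), 59 (331), 60 (323) and 61 (328) and Air NonDrinking mouse 50 (354). In drinking mice the 549 became 1108 with array weights, 1759 at 0.05, 0 without mice 57 to 62, 3041 without mice 24 to 32 and 0 with the covariate, and 167 to 1014 leaving out each array, with 361 and 315 without CIE Drinking mice 1 and 17, and 873, 293, 171, 226 and 200 without Air Drinking mice 25, 57, 60, 61 and 62 (the lowest was without mouse 59, the highest without mouse 24). In non-drinking mice the 0 became 1 at 0.05, 66 without mice 57 to 62, 49 without mice 24 to 32, and 0 to 2 leaving out each array (2 without CIE NonDrinking mouse 41). The interaction went to 1 at 0.05, 963 without mice 24 to 32, and 0 to 1 leaving out each array (1 without CIE Drinking mouse 4). The cause was not tested. In the paired fit, with mouse number as the block, HPC minus NAC gave 0 and HPC minus PFC 1909 in place of 1898, so it changed no call count by over 1.5 times. HPC minus PFC was 4009 at 0.05 and 255 without mice 57 to 62. Of the list genes, 8 were called by the brightest probeset, 9 by the mean of probesets and 0 without mice 57 to 62. None of 89 named probesets turned its direction under the settings not added later, and 72 were no longer called with vapor alone and 77 without mice 57 to 62.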

Other observations

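Other genes of differentiating oligodendrocyte precursors were read out after the fall of 9630013A20Rik had been seen, and none of their 9 probesets was called. Bmp4, a secreted growth factor, had 6.13 to 6.90 in CIE mice and 6.28 to 6.88 in Air mice, a difference of -0.08 (SE 0.0586, adjusted p = 0.534). Enpp6, a choline phosphodiesterase, had 4.47 to 5.01 in CIE mice and 4.61 to 5.06 in Air mice at its dimmer probeset, a difference of -0.18 (SE 0.0427, adjusted p = 0.0108), and -0.10 (SE 0.0528, adjusted p = 0.343) at its brighter one. Gpr17, a receptor of committed precursors, differed by 0.00 (SE 0.0584), the brightest probeset of Bcas1 by 0.00 (SE 0.0595) and that of Tns3 by -0.01 (SE 0.0384). Neu4 was not analysed here.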
